A study of Mus musculus with 12 samples.

Results

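Acetylation of histone H3 at lysine 9 and lysine 27 was compared between thymocytes of Zfatf/f mice (floxed below) and Zfatf/f-LckCre mice (Lck-Cre below) by setting 2 lists of ChIP-seq peaks side by side. The members were taken from the deposited acetylation lists, 13016 peaks in floxed and 2225 in Lck-Cre thymocytes, or 15241 of the 21883 peaks in all lists of the series. A floxed peak is called recurrent where at least 1 bp is shared with an Lck-Cre peak, and lost where no base is shared. All positions are in mm9. Both groups were thymocytes (T cell precursors) of mice aged 4 to 5 weeks, and both carry the floxed Zfat alleles. They differ in Cre, expressed from Lck, a gene active in the T lineage. No acetylation list of a Cre line without floxed alleles, or of wild-type mice, was analysed here. Chromatin was fixed in 1% formaldehyde for 10 min, digested for 0.5 h at 37 °C by 375 units of micrococcal nuclease, then sonicated. Each genotype had 1 ChIP library, and the labels do not say how many animals it came from. Every comparison is therefore between these libraries, with no test between genotypes. In whole thymocytes, fewer cells of a type and less acetylation per cell cannot be told apart. How far Zfat was deleted cannot be read from peak lists, and no gene annotation of mm9 was used, so regions are given by position and the thymocyte identity of the samples was not checked against marker genes.

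Lysine acetylation of the H3 tail is written by histone acetyltransferases, removed by histone deacetylases and read by bromodomain proteins. The lysine 9 and lysine 27 marks are typical of active promoters, and the lysine 27 mark also of active enhancers. The antibody is named for both residues, so the lists do not separate them. Wide acetylated stretches are known from genes that define a cell's identity. ZFAT is a nuclear zinc-finger protein studied for its part in T cell development.

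The floxed list was longer, and its peaks were wider and higher. Floxed peaks had a median width of 290 bp (quartiles 187 and 466) and reached 2984 bp, while Lck-Cre peaks had a median of 192 bp and reached 1508 bp. The floxed list held 2871 peaks of 500 bp or more, 22.1% of the list, against 109 in Lck-Cre, 4.90%. Peaks of 1000 bp or more numbered 375 in floxed and 4 in Lck-Cre thymocytes. Peaks covered 4.82 Mb in floxed and 0.555 Mb in Lck-Cre, a ratio of 8.69, against a ratio of 5.85 in peak number. Of the Lck-Cre bases, 82.3% lay inside floxed peaks, and of the floxed bases 9.46% lay inside Lck-Cre peaks.

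At like P score (−log10 of the caller's p) the widths lay closer. For scores from 5 to 10 the median width was 177 bp in floxed (1558 peaks) and 181 bp in Lck-Cre (1192 peaks). For scores from 10 to 20 it was 195 bp in floxed (3543 peaks) and 208 bp in Lck-Cre (926 peaks). In these ranges, which hold most Lck-Cre peaks, the floxed peaks were thus not the wider ones. For scores from 20 to 40 it was 317 bp (3861 peaks) and 223.5 bp (104 peaks). Scores of 40 or more were held by 4054 floxed peaks and 3 Lck-Cre peaks. Within the range from 20 to 40 the scores were not alike, with medians of 28.3 in floxed and 23.0 in Lck-Cre. The floxed decile with a median score of 22.9 had a median width of 267 bp, closer to the 223.5 bp of Lck-Cre.

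The depth of the libraries is not in the lists. Taking the lowest background of a list as the genome average, it was 2.19 M fragments for floxed and 1.34 M for Lck-Cre, a ratio of 0.613. The pileup, the number of fragments at the summit that the deposited fold and score imply, had a median of 38 in floxed peaks and 18 in Lck-Cre peaks. A peak could be called on as few as 4 fragments in floxed and 3 in Lck-Cre thymocytes. The library with the shorter list had the lower inferred depth, and the part of depth in the shorter list was not tested. Where both lists held a peak, the Lck-Cre pileup was 0.484 of the floxed pileup (median over 1600 sites) after scaling to these depths. The headers do not name the control library of either list.

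Wide floxed peaks recurred more often than narrow ones. Over the whole list, 1600 of 13016 floxed peaks recurred (12.3%, 95% interval 11.7% to 12.9%). The share depended on the part of the lists compared: it was 38.6% (36.5% to 40.6%) with the floxed list cut by score to the length of the Lck-Cre list, and 7.85% with P scores from 10 upward in both. Width classes here include their lower limit and not their upper one. Below 200 bp the share was 126 of 4044 peaks (3.12%, 2.60% to 3.70%), and at 200 to 300 bp it was 178 of 2647 (6.72%, 5.80% to 7.75%). It was 467 of 3454 (13.5%, 12.4% to 14.7%) at 300 to 500 bp. From 500 to 1000 bp it was 640 of 2496 (25.6%, 23.9% to 27.4%), and at 1000 bp or more 189 of 375 (50.4%, 45.2% to 55.6%). The intervals of neighbouring classes did not overlap. Peaks of 500 bp or more exceeded those under 200 bp by 25.8 percentage points (24.0 to 27.5), by 13.9 with P scores from 10 upward alone and by 41.1 with the floxed list cut by score to the shorter length. Of the 60 peaks of 1500 bp or more, 41 recurred (68.3%, 55.0% to 79.7%). The intervals cover counting error only, and peaks of 1 library are not independent samples of a genotype.

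Wider peaks also had higher scores, with medians of 14.5 below 200 bp and 63.2 at 1000 bp or more, so shares were compared within deciles of the floxed P score. In the highest decile, of scores from 67.1, the share was 2 of 23 below 200 bp (8.70%, 1.07% to 28.0%) and 50 of 217 at 200 to 300 bp (23.0%, 17.6% to 29.2%). There it was 153 of 375 (40.8%, 35.8% to 46.0%) at 300 to 500 bp, 272 of 517 (52.6%, 48.2% to 57.0%) at 500 to 1000 bp and 115 of 169 (68.0%, 60.4% to 75.0%) at 1000 bp or more. Median P scores of these 5 classes lay between 78.1 and 85.1 and median pileups between 84 and 95. The order by width thus held among peaks of nearly equal height. When each decile was split at its middle rank by width, the wider peaks recurred more often than the narrower ones in 7 of 10 deciles, by 22.9 percentage points (18.2 to 27.5) in decile 9 and 8.45 (5.10 to 11.8) in decile 7. In the lowest 4 deciles, with scores up to 20.6, the difference lay between -2.30 (-3.99 to -0.824, decile 1) and 0.307 percentage points. There few peaks of any width recurred, from 1.61% to 3.99% of a decile.

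**Figure D1:**
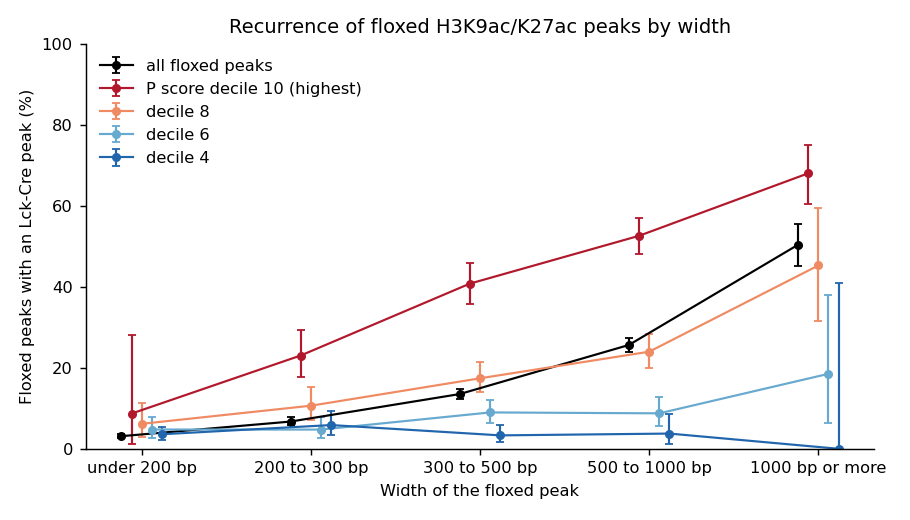
Share of floxed H3K9ac/K27ac peaks that share at least 1 bp with an Lck-Cre peak (vertical axis, percent) by width of the floxed peak (horizontal axis), for all peaks and within 4 deciles of P score; bars are exact 95% intervals. In decile 10 the share rises from 8.70% below 200 bp to 68.0% at 1000 bp or more, while decile 4 lies at 5.86% or less in every class, with 0 of 7 peaks at 1000 bp or more.

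A wide peak offers more bases to meet. With each floxed peak replaced by a window of 75 bp on either side of its summit, the share was 3.12% (2.60% to 3.70%) below 200 bp, 22.0% (20.4% to 23.7%) from 500 to 1000 bp and 39.2% (34.2% to 44.3%) at 1000 bp or more. In the highest decile it was 23.0% (17.6% to 29.2%) at 200 to 300 bp and 52.7% (44.9% to 60.4%) at 1000 bp or more. There it was 40.5% (35.5% to 45.7%) at 300 to 500 bp and 46.8% (42.4% to 51.2%) at 500 to 1000 bp. Equal windows therefore kept the order, with a smaller rise. In the highest decile the intervals of the classes from 300 bp upward overlapped, so their order is not resolved there.

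Strong but narrow peaks recurred less often than strong wide ones, and more often than floxed peaks as a whole (12.3%). Of 240 floxed peaks in the highest decile under 300 bp, 52 recurred (21.7%, 16.6% to 27.4%), against 540 of 1061 at 300 bp or more (50.9%, 47.8% to 53.9%). The 188 narrow ones without an Lck-Cre peak had a median pileup of 82.5 fragments (36 to 134) and a median fold of 19.8 over background. Their median distance to the nearest Lck-Cre peak was 149.7 kb, against 147 kb for all lost peaks. At the other end, 54 peaks of 1000 bp or more in that decile were lost, with a median pileup of 88.5 (63 to 105) against 100 (60 to 169) in the 115 that recurred. These ranges overlapped.

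The widest floxed peaks were all recurrent, each over part of its length. The widest, on chromosome 11 at 102177939 to 102180922 (2984 bp, fold 10.2, pileup 99, Poisson 95% interval 80.5 to 121), met 2 Lck-Cre peaks, of which the one sharing most bases spanned 1033 bp with a pileup of 25 (16.2 to 36.9). On chromosome 17, 4994503 to 4996882 (2380 bp, pileup 92), the floxed peak also met 2, and the one sharing most bases spanned 606 bp with a pileup of 21. On chromosome 12, 77469986 to 77472263 (2278 bp, pileup 97), the Lck-Cre peak spanned 162 bp with a pileup of 27, and its summit lay 1669 bp from the floxed summit. On chromosome 13, 37917507 to 37919760 (2254 bp, pileup 107), it spanned 160 bp with a pileup of 17. Also on chromosome 13, 58228660 to 58230777 (2118 bp, pileup 106) met 2 Lck-Cre peaks, of which the one sharing most bases spanned 183 bp with a pileup of 14. In these 5 regions the floxed pileups were 92 to 107 and those of the best-matched Lck-Cre peaks 14 to 27, neither scaled to depth. Over all 189 recurrent peaks of 1000 bp or more the medians were 89 and 23, so the gap was not particular to these 5.

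Most matched Lck-Cre peaks were narrower than their floxed peak, less clearly so where the floxed peak was itself narrow. The Lck-Cre peak was narrower at 1540 of 1600 sites (96.3%, 95.2% to 97.1%), but at 75 of 126 (59.5%, 50.4% to 68.2%) where the floxed peak was under 200 bp. It lay wholly inside the floxed peak at 1456 (91%, 89.5% to 92.4%). The median width was 509.5 bp in floxed and 246 bp in Lck-Cre, and the median ratio was 0.561 (quartiles 0.354 and 0.768). The ratio fell with width, from a median of 0.964 for floxed peaks below 200 bp and 0.651 at 300 to 500 bp to 0.253 at 1000 bp or more. No Lck-Cre peak was narrower than 152 bp, which bounds the ratio of narrow floxed peaks from below and so fixes part of this trend. The signal moved with the width, and its part in the narrower peaks was not tested. The pileup was lower in Lck-Cre at 1590 sites, with medians of 74 and 21 and a median ratio of 0.297 before scaling to depth. By width class, the ratio scaled to depth had medians of 0.751 below 200 bp, 0.544 at 200 to 300 bp, 0.489 at 300 to 500 bp, 0.462 at 500 to 1000 bp and 0.434 at 1000 bp or more. These ratios hold only for sites called in both lists, and a low floxed peak is listed in both only if its Lck-Cre pileup is comparatively high. Within the highest decile the medians over the 4 classes of 200 bp or more lay between 0.411 and 0.435.

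Summits of matched peaks were compared next. The distance between summits of overlapping peaks is bounded by their widths, so its increase with width is in part fixed and is given as a description. The 2 summits lay a median of 26 bp apart (quartiles 10 and 95.75), and within 75 bp at 1162 of 1600 sites (72.6%). Below 200 bp, 122 of 126 sites were within 75 bp. At 1000 bp or more 96 of 189 were, and 77 (40.7%) lay over 200 bp apart. At 50 of those 189 sites (26.5%) the floxed peak met 2 or more Lck-Cre peaks, against 15 of 640 at 500 to 1000 bp and 0 in the narrower classes. Over all sites 65 floxed peaks met 2 or more Lck-Cre peaks, and 1 Lck-Cre peak met more than 1 floxed peak. Where they recurred, broad floxed stretches were thus mostly represented in Lck-Cre by short pieces, at times by several. Of 375 floxed peaks of 1000 bp or more, 189 recurred, and the others had no Lck-Cre peak.

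Among sites called in both lists, the order of the peaks was only loosely shared. Across the 1600 recurrent sites, Spearman's rho was 0.461 for width, 0.268 for P score and 0.0901 for fold. These are descriptions across sites of 2 libraries and carry no p. Only sites that passed the caller in both lists enter, with a median Lck-Cre P score of 10.5, and such a selection can lower rho. Over the whole floxed list, recurrence rose with P score, from 1.92% in the lowest decile to 45.5% in the highest. The 5 recurrent floxed peaks of highest P score show the spread. The highest, on chromosome 7 at 80763017 to 80763239, was only 223 bp wide, with a pileup of 202 (175 to 232) and a fold of 40.1. Its Lck-Cre peak was 181 bp wide with a pileup of 59 (44.9 to 76.1) and a fold of 10.3, and the summits were 15 bp apart. On chromosome 5, 65193899 to 65195528 (1630 bp, pileup 169), the Lck-Cre pileup was 37 and the summit 780 bp away. On chromosome 7, 17428880 to 17429167, pileups were 141 and 24 with summits 1 bp apart. On chromosome 1, 64168461 to 64168780, they were 168 and 50, and on chromosome 2, 18919009 to 18920275, they were 130 and 27. None of these 5 overlapped a floxed ZFAT or H3K9me3 peak, which lay on only 5% and 0.125% of all recurrent peaks.

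Few peaks lay close to the limit of 1 bp. Only 3 of the 1600 recurrent peaks shared less than 50% of the shorter peak, and the smallest overlap was 64 bp. Just outside the rule, 350 lost peaks had an Lck-Cre peak less than 1000 bp away, and at 334 of these the Lck-Cre peak lay on another floxed peak. Counting gaps of at most 1000 bp as overlap turned the sign of the comparisons by clustering and neighbour distance, given with them. Most lost peaks were far from any Lck-Cre peak, but Lck-Cre peaks were about as far from each other. Of the 2225 Lck-Cre peaks, 59.0% had no other within 100 kb, and the median distance to the nearest was 144 kb. The distances of lost peaks are therefore near those of the sparse Lck-Cre list itself. For 6833 of 11416 (59.9%, 58.9% to 60.8%) the nearest was at least 100 kb away, and the median distance was 147 kb.

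Clustered floxed peaks recurred less often than lone ones, by about as much as their P scores differed. Peaks with gaps of at most 5 kb were joined, which left 8105 lone peaks and 2030 clusters with 4911 peaks. Lone peaks recurred in 1057 cases (13.0%, 12.3% to 13.8%), members of pairs in 366 of 3064 (11.9%, 10.8% to 13.1%), of clusters of 3 to 4 in 137 of 1374 (9.97%, 8.44% to 11.7%), and of larger clusters in 40 of 473 (8.46%, 6.11% to 11.3%). Clusters of 3 or more thus differed from lone peaks by -3.46 percentage points (-4.92 to -1.86), or by 3.40 where gaps of at most 1000 bp counted as overlap and 2.76 (-3.94 to 9.71) where both lists were cut to the shorter length. Clustered peaks were also weaker, with median P scores of 22.1 in clusters of 5 or more and 27.5 in lone peaks. At the recurrence of their P score deciles, the 4 classes would have had shares of 12.9%, 12.0%, 10.3% and 9.71%, each inside the observed interval. Within deciles, clusters of 3 or more lay below lone peaks in 8 of 10, with a mean difference of -0.716 percentage points, and every interval of these 10 differences included 0. At fixed width the classes also lay close: at 500 to 1000 bp, 25.3% of lone peaks (23.3% to 27.5%) and 25.5% of members of clusters of 3 to 4 (19.6% to 32.2%) recurred.

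Distance to the nearest floxed peak gave a like picture. With a neighbour under 1 kb away, 398 of 3247 peaks recurred (12.3%, 11.1% to 13.4%). At 1 to 5 kb the share was 145 of 1663 (8.72%, 7.41% to 10.2%), the lowest, and these peaks also had the lowest median P score, 19.8. It was 10.5% (9.32% to 11.7%) at 5 to 20 kb and 13.9% (12.9% to 15.1%) at 20 to 100 kb. Peaks with no neighbour within 100 kb recurred in 240 of 1568 cases (15.3%, 13.6% to 17.2%). Peaks with a close neighbour differed from these isolated peaks by -3.05 percentage points (-5.21 to -0.986), or by 7.33 where gaps of at most 1000 bp counted as overlap. The shares that P score deciles would give, from 9.40% at 1 to 5 kb to 13.9% at 100 kb or more, each lay inside the observed interval. Within deciles the sign of the difference was split, 5 of 10 each way, with decile 7 alone excluding 0 at -7.26 percentage points (-14.2 to -0.946).

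**Figure D2:**
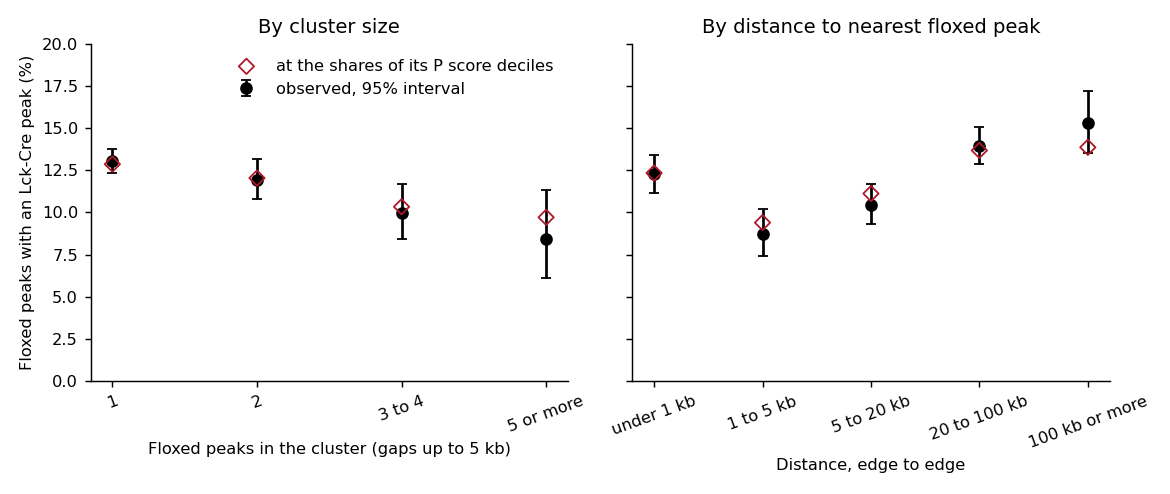
Share of floxed peaks with an Lck-Cre peak (vertical axis, percent) by number of peaks in the cluster (left) and by distance to the nearest floxed peak (right). Filled points are observed shares with exact 95% intervals, open diamonds the share the class would have at the recurrence of its P score deciles; all diamonds lie inside the intervals.

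Peaks next to a recurrent peak recurred more often, at close range. When the nearest floxed peak was under 1 kb away and recurrent, 89 of 400 peaks recurred (22.3%, 18.3% to 26.6%), against 309 of 2847 (10.9%, 9.73% to 12.1%) where that neighbour was lost. The former had higher scores, with a median of 36.5 against 25.1, and their P score deciles would give 17.2% and 11.7%. In the top 3 deciles the shares were 38.3% (31.1% to 45.9%) and 28.2% (25.1% to 31.5%). At 1 to 5 kb the shares were 7.04% (3.43% to 12.6%) and 8.88% (7.49% to 10.4%), and the intervals overlapped at every distance beyond 1 kb. Peaks that are each other's nearest neighbour are both counted, so the counts are not independent and these intervals can be too narrow.

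Few clusters were kept whole, where few clustered peaks recurred (543 of 4911, 11.1%). What counts of whole clusters this share alone would give was not computed. Of the 2030 clusters, 1548 (76.3%) had no recurrent member, 448 had some and 34 had all; 33 of the 34 were pairs. A recurrent member was found in 333 of 1532 pairs (21.7%, 19.7% to 23.9%), 118 of 422 clusters of 3 to 4 (28.0%, 23.7% to 32.5%) and 31 of 76 larger ones (40.8%, 29.6% to 52.7%), which hold more peaks. In the 448 partly recurrent clusters the member of highest P score was recurrent in 332 (74.1%, 69.8% to 78.1%) and the widest in 323 (72.1%, 67.7% to 76.2%), where on average 44.2% of members were. In 79 split pairs in which the wider member had the lower score, the wider one was kept in 41 (51.9%, 40.4% to 63.3%), and that interval includes an even split.

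In each of the 5 largest clusters 0 or 1 peak recurred. Their median P scores, 16.7 to 26.0, lie in deciles of which 3.99% to 7.22% recurred, and over the whole list 12.3% did. The largest held 11 peaks over 15.4 kb on chromosome 15, 76024227 to 76039623, with pileups of 7 to 58, and no Lck-Cre peak lay in its span. On chromosome 2, 166453357 to 166476152, 1 of 10 peaks recurred, the fourth widest and only the ninth by score, at 166457176 to 166457357, with pileups of 14 in floxed and 5 in Lck-Cre. On chromosome 5, 138174261 to 138188942, 1 of 9 recurred, the one of highest score (138188183 to 138188597, pileups 74 and 31). Both other clusters of 9, on chromosome X at 11705100 to 11717836 and chromosome 12 at 114147044 to 114158895, had 0 recurrent members. None of the 5 clusters overlapped a floxed ZFAT peak, which over the whole list lay on 5% of recurrent and 3.21% of lost peaks. The clusters on chromosomes 15 and 5 each had 1 peak in the highest P score decile, and the others had 0.

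**Figure D3:**
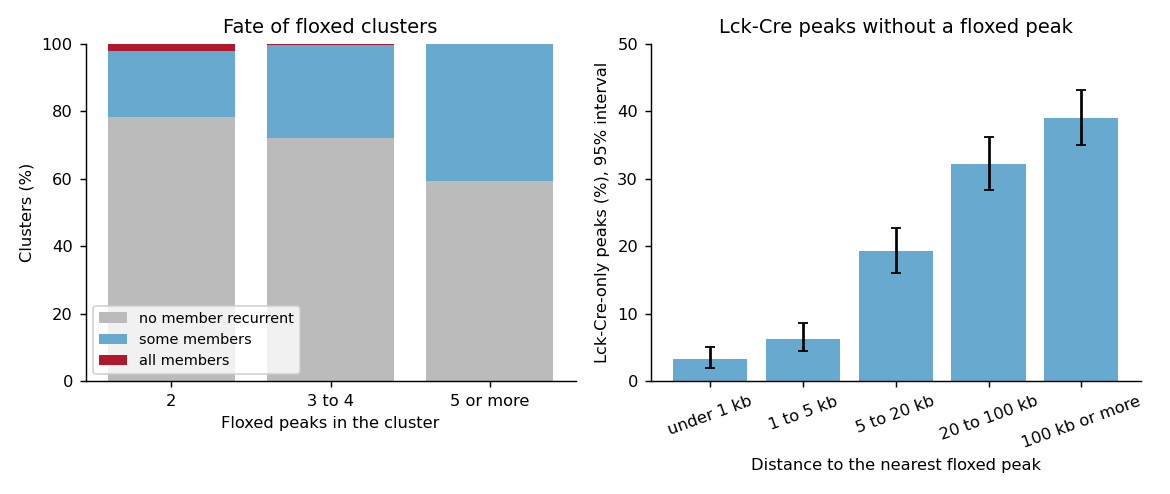
Left, percent of floxed clusters of 2, 3 to 4 and 5 or more peaks with no, some or all members recurrent. Right, the 556 peaks found in Lck-Cre alone, as percent by distance to the nearest floxed peak, with exact 95% intervals; clusters with all members recurrent are a thin band, and most Lck-Cre-only peaks lie 20 kb or more from a floxed peak.

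Strong neighbours could part over less than 200 bp. Of 36 neighbouring pairs under 5 kb apart with both peaks in the highest decile, 8 kept both, 16 kept 1 and 12 kept none. Of all peaks in that decile 45.5% recurred, and the split of pairs that this share alone would give was not computed. The closest split pair lay 165 bp apart on chromosome 17. Its narrow peak (4994057 to 4994337, 281 bp, pileup 73, 57.2 to 91.8) was lost, and the 2380 bp peak beside it recurred. On chromosome 15 a peak of 254 bp (96116915 to 96117168, pileup 91) was lost, and 174 bp away a peak of 1351 bp (96117343 to 96118693, pileup 144) recurred with an Lck-Cre pileup of 36; the latter carried a ZFAT peak. On chromosome 1 the 1108 bp peak at 180266741 to 180267848 (pileup 105) recurred with an Lck-Cre pileup of 34, and the 191 bp peak 186 bp away at 180268035 to 180268225 (pileup 100) did not. In these 3 pairs the wide member was kept, but over the 16 split pairs the wider one was kept in 10 and the one of higher P score in 13. The floxed pileups of the last pair had overlapping Poisson intervals, 85.9 to 127 and 81.4 to 122. Over all 71 split pairs of neighbours in that decile, at any distance, the wider one was kept in 48 (67.6%, 55.5% to 78.2%) and the one of higher P score in 47 (66.2%, 54.0% to 77.0%). Where the wider peak had the lower score, it was kept in 21 of 41 (51.2%, 35.1% to 67.1%).

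Isolated peaks of the highest decile were found among both the lost and the recurrent ones. There, 87 of 182 peaks with no floxed neighbour within 100 kb recurred (47.8%, 40.4% to 55.3%), against 45.5% of the whole decile. The most isolated lost peak of the highest decile, on chromosome 16 at 70314100 to 70314873 (774 bp, fold 21.1, pileup 79, 62.5 to 98.5), lay 4751 kb from the next floxed peak and 5462 kb from the nearest Lck-Cre peak. It was followed by chromosome 3, 81736548 to 81736756 (209 bp, pileup 110), with 1909 kb to its neighbour, and chromosome 6, 18798684 to 18798940 (257 bp, pileup 103), with 1154 kb. None of the 3 carried a ZFAT peak, which lay on 3.21% of all lost peaks.

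Loss was found on every chromosome. Recurrence ranged from 8.05% on chromosome X (19 of 236, 4.92% to 12.3%) and 8.70% on chromosome 19 (42 of 483, 6.34% to 11.6%) to 18.7% on chromosome 18 (57 of 305, 14.5% to 23.5%). The interval included 12.3%, the share of the whole list, on 15 of 20 chromosomes. Chromosomes 4, 8, 19 and X lay below it and chromosome 18 above. Across the 20 chromosomes the share moved with the median P score of their floxed peaks (Pearson's r 0.897, Spearman's rho 0.842, a description over chromosomes of 1 pair of libraries). On chromosome X the median score was 21.5, the lowest, and its P score deciles would give 8.10%, next to the 8.05% observed. That match is for all its peaks together. Within deciles X lay above the autosomes in 6 and below in 4, with a mean difference of -3.04 percentage points. In decile 8, 0 of 26 X peaks recurred against 18.7% of autosomal ones, and in decile 3, 3 of 25 against 2.04%. The highest decile held only 5 X peaks. Chromosome 18 had the highest median, 32.6, and its deciles would give 14.3%. It lay 4.37 percentage points above that value, and its interval was the only one of 20 to leave it out. Chromosome 19, where the median distance between neighbouring peaks was shortest at 5.60 kb, differed from its decile value of 11.2% by -2.53 percentage points. In the other direction, from 63.3% (X, 19 of 30) to 84.9% (chromosome 13, 62 of 73) of a chromosome's Lck-Cre peaks lay on a floxed peak.

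**Figure D4:**
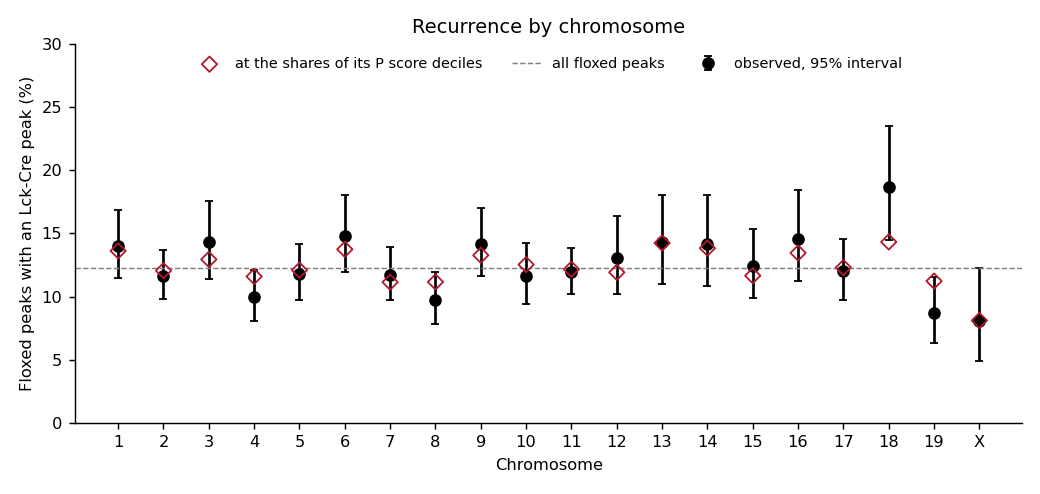
Share of floxed peaks with an Lck-Cre peak on each chromosome (vertical axis, percent, exact 95% intervals), with the share at the recurrence of its P score deciles (open diamonds) and the share of all peaks (dashed line, 12.3%). Chromosome 18 at 18.7% is the only one whose interval lies clear of its diamond.

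Of the 2225 Lck-Cre peaks, 1669 lay on a floxed peak (75.0%, 73.2% to 76.8%) and 556 did not. Against the strongest floxed peaks alone, with both lists at the shorter length, the share was 41.5% (39.4% to 43.6%), and with P scores from 10 upward in both it was 89.8%. Few of the 556 lay beside a floxed peak. Only 18 (3.24%, 1.93% to 5.07%) lay within 1 kb of a floxed peak and 35 more within 5 kb, while 179 (32.2%, 28.3% to 36.3%) were 20 to 100 kb away and 217 (39.0%, 35.0% to 43.2%) at least 100 kb. That last share was 23.8% with P scores from 10 upward in both lists and 16.7% with both lists at the shorter length. The median distance was 60.2 kb. They were small: 399 of the 556 (71.8%) rested on 5 fragments or fewer, against 42 of the 1669 others (2.52%), and their median width was 165 bp against 241 bp. The 3 of highest score outside high control background lay 4.09, 5.50 and 16.0 kb from a floxed peak. They were chromosome 17, 46811047 to 46811230 (pileup 13, 6.92 to 22.2), chromosome 10, 59747995 to 59748185 (pileup 12, 6.20 to 20.96), and chromosome 11, 3043686 to 3043853 (pileup 28, 18.6 to 40.5).

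Peaks carrying ZFAT recurred in 17.9% of cases (80 of 447) and others in 12.1%; their P score deciles would give 18.002% and 12.1%. Floxed ZFAT peaks lay on 80 of 1600 recurrent peaks (5%, 3.98% to 6.18%) and on 367 of 11416 lost ones (3.21%, 2.90% to 3.55%). From 500 to 1000 bp, 33 of 117 peaks with ZFAT recurred (28.2%, 20.3% to 37.3%), against 25.5% (23.8% to 27.3%) without. At 1000 bp or more it was 12 of 17 (70.6%, 44.0% to 89.7%) against 49.4% (44.1% to 54.7%). In each of the 5 width classes the intervals with and without ZFAT overlapped, which does not show that the shares are equal.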

How the data were processed

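The deposited files are mm9 peak lists. The submitters' processing notes list MACS (no version), SAMtools 0.1.18, Trimmomatic 0.22 and CASAVA 1.8.1, without their roles. No source used here gives an aligner. Per the file headers, the fragment length was 150 bp, the p threshold 1e-05, and the background dynamic. The deposited P score was read as a −log10 p-value, since its lowest values, 5.02 in both lists, lie at that threshold. The fold change is likewise a deposited ratio of the authors. The control behind each list is not named. Each acetylation sample has its own list.

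Overlap, clusters (gaps up to 5000 bp) and edge-to-edge distances were computed from 1-based, closed coordinates with Python 3.11.15, pandas 2.3.3 and SciPy 1.17.1, and tested on simulated data. Shares have exact Clopper-Pearson 95% intervals, differences of shares Newcombe intervals, pileups exact Poisson intervals, all for counting error only. The share at P score deciles is the mean, over a class, of each peak's decile's recurrence. Pileups are whole numbers that give the fold and P score together (tolerance 0.0001), if fold is (pileup + 1)/(background + 1); each of the 15241 peaks had 1 solution. Named regions are, by rule, the 5 widest, 5 largest clusters, 5 strongest recurrent, 3 most isolated strong lost, 3 closest strong split pairs and 3 strongest Lck-Cre-only. Members, classes and rules were chosen with earlier results of these data known. The windows around summits, shares at decile recurrence, neighbour fate, strong narrow peaks, pairs with opposed width and score, and runs were added after values were seen. B6 lists were not used. Input reads were not analysed here.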

Additional observations from a re-analysis of the deposited data

How the results depend on the processing

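Of 72 values under alternative settings, 45 stayed inside the interval of the reported value, 24 left it and 3 changed sign. The 45 include every value of 2 settings that could change little. Leaving out control background of 20 or more removed 1 floxed and 2 Lck-Cre peaks. Requiring a larger shared part of the shorter peak dropped 3 recurrent floxed peaks. The values of these 2 settings therefore say little about how firm the results are. The cause of the departures and sign changes was not tested, except that higher score limits and shorter lists leave fewer peaks. Allowing gaps up to 1000 bp also favours peaks with a close floxed neighbour by its rule. Of the 350 lost peaks with an Lck-Cre peak under 1000 bp away, 334 had one that lay on another floxed peak. Such a lost peak is then counted through the match of its neighbour. The share of floxed peaks that recurred was 10.9% when the floxed summit had to lie in an Lck-Cre peak, 11.2% with windows of 75 bp around summits (an alternative chosen after seeing the data), 15.0% with gaps up to 1000 bp allowed, 7.85% with only P scores from 10 upward kept and 38.6% with both lists at the shorter length. The Lck-Cre share was 89.8% at scores of 10 or more and 41.5% at equal length.

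The excess of wide over narrow peaks was 20.1 percentage points by summit, 21.1 by windows, 13.9 at scores of 10 or more, 41.1 at equal length and 7.03 as a mean over deciles of wider minus narrower peaks, which is another contrast. The difference of clusters from lone peaks turned to 3.40 with gaps up to 1000 bp and to 2.76 at equal length; it was -1.82 at scores of 10 or more, -5.06 with clusters joined over 20 kb and -0.716 over deciles. That of close from isolated neighbours turned to 7.33 with gaps up to 1000 bp. Chromosome X differed from the autosomes by -4.32 points (-7.22 to -0.103), and at equal length by -17.2 (-31.2 to 8.996), an interval that includes 0.

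The median width ratio was 0.601 by summit, 0.606 with gaps, 0.586 at scores of 10 or more and 0.498 at equal length. Of Lck-Cre-only peaks, 23.8% at scores of 10 or more and 16.7% at equal length lay at least 100 kb from a floxed peak. The strongest member of a partly recurrent cluster was kept in 78.1% with gaps and 66.1% at equal length. The ZFAT difference of 5.80 points (2.48 to 9.67) was 2.83 at equal length, with an interval (-5.51 to 11.6) that includes 0. Depth limits what is called: a lost peak may hold fragments under the caller's limit, so lost means not called and not free of acetylation. This is not confined to weak floxed peaks. Matched Lck-Cre peaks had a median P score of 10.5, and of 12.1 where the floxed peak was in the highest decile. The lowest scores listed were 5.02. The alternative on distance to gene starts was not run, since no mm9 annotation was used. Alternatives for the width ratio, partly recurrent clusters and ZFAT were also chosen after seeing the data. With 1 library a group, none could be left out, and no paired analysis was possible because no group has a second acetylation library.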

Other observations

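With 12.3% of floxed peaks recurrent, runs of lost peaks are likely to be longer than runs of recurrent ones. What lengths the shares alone would give was not computed, and the longest runs are given as positions only. The longest run of consecutive lost floxed peaks held 79 peaks over 0.743 Mb on chromosome 10, 80218015 to 80961462, with a median P score of 16.7 and a highest score of 102. The next were 63 peaks over 3.24 Mb on chromosome 2, 26819553 to 30061648, and 54 peaks over 27.7 Mb on chromosome 1, 94077266 to 121733991, with median scores of 22.7 and 22.5. The longest runs of recurrent peaks held 5, on chromosome 6, 11876010 to 15671369, and chromosome 5, 93634767 to 98459714, with median scores of 66.7 and 58.6. These runs were picked for their length after the values were seen. Over the whole list the median score was 22.9 for lost and 57.5 for recurrent peaks, so the runs on chromosomes 2 and 1 had the scores usual for lost peaks.

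H3K9me3, a mark of silenced chromatin, lay on few acetylation peaks, and these had low P scores (median 10.7, against 26.0 for the others). Floxed H3K9me3 peaks overlapped 105 floxed acetylation peaks, of which 2 recurred (1.90%, 0.232% to 6.71%). The P score deciles of the 105 would give 3.06%, inside that interval. Floxed H3K9me3 peaks overlapped 20 of the 556 Lck-Cre-only acetylation peaks (3.60%, 2.21% to 5.50%), against 2 of the 1669 Lck-Cre peaks on a floxed one (0.120%, 0.0145% to 0.432%). These groups also differed in strength, with 71.8% and 2.52% of their peaks on 5 fragments or fewer, and shares at like strength were not compared. Control background of 20 or more was found at 2 of the 556.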
